A study of Mus musculus with 1699 samples.

Results

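The cells described here are 71 neurons from the ventral midbrain of adult mice that carried a high level of Slc6a3, the dopamine transporter. They were taken from mice heterozygous for Pitx3tm1Mli, a knock-in in which the coding sequence of eGFP sits at 1 Pitx3 allele. All cells compared below carry this allele, so that 1 Pitx3 copy is altered in the comparison cells as well. Tissue was dissected at postnatal day 90 (P90) and dissociated with papain, GFP-positive cells were sorted, and each cell gave 1 Smart-seq2 library, a full-length cDNA library without molecular identifiers. The mice were male and female, several animals were used per stage, and none is named in the labels, so cells are not replicates of an animal and no test between groups was possible. Bracketed ranges after a percentage are exact 95% intervals (Clopper-Pearson) that cover the counting of cells only.

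The series holds 1699 cells, of which 1317 are heterozygous. A P90 cell was kept if its reads summed to over 100000, which all but 8 heterozygous P90 cells passed. The cells described were chosen by their Slc6a3 level, which had to be over 150 RPKM (reads per kilobase of transcript, scaled to the reads of the cell), and are called Slc6a3-high. The titles spread the kept P90 cells over 4 plates, numbered 1, 2, 4 and 5, which held 94, 92, 93 and 46 of them. Of these, 28, 21, 13 and 9 were Slc6a3-high (29.8%, 22.8%, 13.98% and 19.6%), so that the 71 Slc6a3-high cells were 21.8% (17.5 to 26.7) of all. The remaining 66, 71, 80 and 37 cells of the plates, called the others, served as the comparison, and counts of others below are out of all of these. Read depth was alike in both groups, with a median of 1894398 reads per Slc6a3-high cell (210410 to 5616639) and 1734627 per other cell (100007 to 8634201). Libraries with few detected gene entries were not spread evenly. Of the Slc6a3-high cells 8 (11.3%) had under 6000 entries with a read, against 3 of the others (1.18%), and the limit of 6000 was set after these numbers were seen. Their part was measured by leaving them out of the comparison with all others, the comparison within the Slc6a3-high cells and the correlations, but not of the remaining comparisons.

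Midbrain dopamine neurons take up tyrosine and convert it to dopamine in a pair of enzyme steps. They load the transmitter into vesicles, release it in the forebrain and clear it again through the transporter that Slc6a3 encodes. They lie mainly in the substantia nigra, whose ventral tier is the most vulnerable in Parkinson's disease, and in the ventral tegmental area. Aldh1a1, an aldehyde dehydrogenase that detoxifies the aldehyde formed from dopamine, marks ventral nigral neurons and a share of the tegmental neurons, and is the usual gene by which the population is divided.

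The sequences of 7 genes on which the results turn are shown first. Each is a 40-base stretch of coding sequence that a padlock probe of the study's in situ sequencing was designed to detect, written 5′ to 3′ on the coding strand. The ends of the probe carry these bases and bind the complementary cDNA. Capitals mark the 10 bases around the point at which the probe's ends are joined. Positions are on GRCm38 (mm10), and every stretch lies within a coding exon. The in situ signal itself was not analysed here. Ntsr1 and Sv2c are shown because a larger share of the Slc6a3-high cells than of all other cells carried them, Aldh1a1, Lpl and Otx2 because they mark the Aldh1a1-high cells, and Npw and Vip because they were more frequent in the Aldh1a1-low cells.
Ntsr1, exon 1, chr2:180500588-180500627, plus strand: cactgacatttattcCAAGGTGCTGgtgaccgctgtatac
Sv2c, exon 2, chr13:96088650-96088689, minus strand: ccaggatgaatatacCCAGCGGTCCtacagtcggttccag
Aldh1a1, exon 9, chr19:20630746-20630785, plus strand: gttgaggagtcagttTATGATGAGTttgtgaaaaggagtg
Lpl, exon 2, chr8:68887509-68887548, plus strand: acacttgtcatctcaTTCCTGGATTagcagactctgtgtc
Otx2, exon 4, chr14:48659190-48659229, minus strand: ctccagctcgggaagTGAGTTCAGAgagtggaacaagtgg
Npw, exon 1, chr17:24658268-24658307, minus strand: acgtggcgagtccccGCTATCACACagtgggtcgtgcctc
Vip, exon 5, chr10:5644039-5644078, plus strand: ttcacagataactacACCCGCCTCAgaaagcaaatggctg

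Slc6a3 (chr13:73536747-73578672, plus strand) chose the cells, so its level is a description only. It ran from 165.3 to 6570 RPKM with a median of 1539. In the other cells it ran from 0 to 125.4 RPKM with a median of 0.909, 32 of them were at 0 and 31 lay between 10 and 150. The 5 cells just inside the threshold had 165.3, 171.3, 196.5, 203.2 and 216.1 RPKM, and the 5 just outside had 125.4, 122.3, 119.3, 106.8 and 98.9, with no cell between.

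The name given to the cells was checked against marker genes. The summed level of 5 dopamine neuron markers (Th, Aldh1a1, Sncg, Ddc and Slc18a2), leaving out Slc6a3 because it chose the cells, was 2103 to 23187 RPKM in the Slc6a3-high cells and 2.13 to 10929 in the others, so the ranges overlapped. The summed level of 8 general neuron markers was 2337 to 6381 RPKM. Of 10 oligodendrocyte markers, 9 had a median of 0 in the Slc6a3-high cells and their sum reached 162.2 RPKM, against 3630 in the others. Mbp, the only one of them compared, was lower at a log2 ratio of -2.004. Of 7 astrocyte markers, 5 had a median of 0 and their sum reached 1305 RPKM, against 2723 in the others. Of these markers 2 were compared, Slc1a2 being higher (log2 ratio 1.21) and Aldoc lower (-1.06), and 1 Slc6a3-high cell and 6 others had 3 or more over 10 RPKM. For 8 microglial markers the sum reached 258.1 and 201.8 RPKM, and for 6 endothelial and mural markers 136.9 and 47.5. The sum of 6 serotonin and noradrenaline neuron markers reached 36.03 and 67.9 RPKM, and that of 7 markers of red nucleus, oculomotor and hypothalamic neurons 184.3 and 243.7. Only 1 Slc6a3-high cell and 3 others had 3 or more oligodendrocyte markers over 10 RPKM. The part of other cell types in the P90 results was not tested beyond leaving the 4 cells with oligodendrocyte markers out.

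The Slc6a3-high cells were first compared with all other P90 cells, to find what else distinguished the neurons with much transporter. An annotated gene entry entered the comparison if its mean reached 10 RPKM in either group, and was counted as higher or lower if the ratio of the means, with 1 RPKM added to each, was at least 2. In every comparison, an entry under 10 RPKM in 1 group entered only through the group where it was higher. Its direction was fixed by entering, so it adds no support to the direction of its list. Of 8037 entries, 3.43% were higher and 4.74% lower. Of the higher entries 79.3% kept their direction on each of the 4 plates taken alone, and of the lower entries 91.9%. With the log2 ratios of the plates averaged with equal weight, 2.84% were higher and 6.32% lower. The median log2 ratio over all entries was -0.07.

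Genes of dopamine synthesis, storage and reuptake were higher in part. Of 10 listed genes 6 were at least 2-fold higher, 4 were within 2-fold and none was lower, while 3.43% of all entries were higher. The list's median log2 ratio was 2.62. Slc6a3 is among the 6 and in the median, and was fixed by the selection. Gch1 averaged 6.19 RPKM in the others, so it entered only through the Slc6a3-high cells and its direction was fixed as well.

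Tyrosine hydroxylase, encoded by Th (chr7:142892752-142931128, minus strand), catalyses the rate-limiting step. Its level was 1.55, 5488 and 14172 RPKM (lowest, median, highest) in the Slc6a3-high cells and 0, 79.8 and 6967 in the others, a ratio of 9.32. Th exceeded 10 RPKM in 70 of 71 cells (98.6%, 92.4 to 100) and in 61.8% of the others (55.5 to 67.8). The difference was 36.8 percentage points with a 95% interval of 28.4 to 42.998 (Newcombe), but 2.76 points (-2.57 to 5.58) when cells over 1 RPKM were counted, an interval that includes 0. After every cell was thinned to 100000 reads the shares were 98.6% and 65.4%. The ranges overlapped widely, since 42.5% of the other cells had Th over 150 RPKM. The 1 Slc6a3-high cell without Th came from plate 5, and had Slc6a3 at 490, Ddc at 1860 and Slc18a2 at 241.8 RPKM.

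Ddc, which makes dopamine from L-DOPA, was at 556, 1857 and 3698 RPKM against 0, 227.4 and 1940, a ratio of 5.66. Slc18a2, the vesicular monoamine transporter, was at 1.64, 503 and 1327 RPKM against 0, 48.2 and 617, a ratio of 6.64. The ranges of both genes overlapped, but each group's median lay outside most of the other group's values. Gch1, which makes the cofactor of tyrosine hydroxylase, exceeded 10 RPKM in 54 Slc6a3-high cells (76.1%, 64.5 to 85.4) and 38 others (14.96%, 10.8 to 19.95), and its mean ratio was 15.3.

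Slc10a4, a vesicle protein of monoaminergic and cholinergic neurons, was detected in every Slc6a3-high cell. It was at 27.8, 494 and 1546 RPKM in the Slc6a3-high cells and at 0, 2.11 and 485 in the others, a ratio of 20.5. All 71 Slc6a3-high cells exceeded 10 RPKM, against 64 others (25.2%, 19.98 to 31.004). Of 5 listed genes of monoamine breakdown, Maob and Aldh1a1 were higher. Maob, a monoamine oxidase, exceeded 10 RPKM in 37 Slc6a3-high cells (52.1%, 39.9 to 64.1) and 25 others (9.84%, 6.47 to 14.2).

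**Figure D1:**
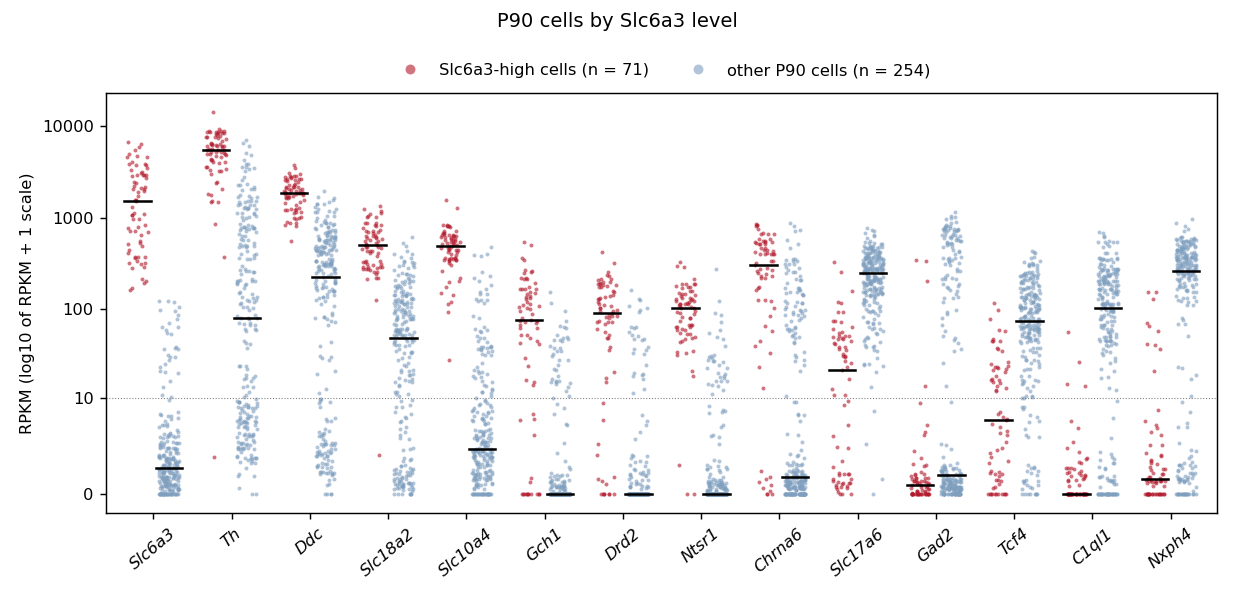
Levels of 14 genes in RPKM (log10 of RPKM + 1 scale) in the 71 Slc6a3-high cells and all other P90 cells, 1 point per cell, with black bars at the medians and a dotted line at 10 RPKM. Slc6a3 chose the cells. Th, Ddc, Slc18a2, Slc10a4, Gch1, Drd2, Ntsr1 and Chrna6 had higher medians in the Slc6a3-high cells, while the medians of Slc17a6, Gad2, Tcf4, C1ql1 and Nxph4 were lower, and the ranges overlapped for every gene except Slc6a3.

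Drd2, the autoreceptor by which released dopamine slows its own neuron, was at 0, 91.1 and 424 RPKM against 0, 0 and 163.6, a ratio of 13.7. It exceeded 10 RPKM in 56 Slc6a3-high cells (78.9%, 67.6 to 87.7) and 29 others (11.4%, 7.78 to 15.98). Among 8 compared genes for the autoreceptor and its potassium channels, only Drd2 was higher, and Kcnj9 was lower. Kcnj6, the channel subunit often used as a nigral marker, differed by a log2 ratio of 0.68, and exceeded 10 RPKM in 28 Slc6a3-high cells and 48 others.

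Ntsr1, the high-affinity neurotensin receptor whose target stretch is printed above, was at 0, 103.6 and 330 RPKM against 0, 0 and 275.2. It exceeded 10 RPKM in 68 of 71 Slc6a3-high cells (95.8%, 88.1 to 99.1) and in 34 others (13.4%, 9.45 to 18.2), a difference of 82.4 points (73.5 to 86.97). Thinning to 100000 reads left these shares at 95.8% and 12.2%. Oprk1, the kappa opioid receptor, exceeded 10 RPKM in 44 and 35 cells, and its mean ratio was 6.31.

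Of 9 listed nicotinic receptor subunits 6 were compared. Chrna3, Chrna4, Chrna6, Chrna7 and Chrnb3 were higher and none was lower, with a median log2 ratio of 1.49, while 3.43% of all entries were higher. Chrna6, a subunit of the receptors on dopamine terminals, had a median of 302.8 RPKM against 0.527, and exceeded 10 RPKM in 61 Slc6a3-high cells (85.9%) and 79 others (31.1%). Chrnb3 and Chrna4 had mean ratios of 2.47 and 2.91. Chrna3 was found in 14 Slc6a3-high cells, and its ratio of 2.92 was under 2 when a plate, or the cells with under 6000 entries, were left out.

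Peptide genes were higher and lower within the same list. Of 15 compared, 7 were higher (Cck, Ntsr1, Tacr3, Oprk1, Vip, Grp and Npw) and 5 lower (Tac1, Oprm1, Adcyap1, Crhbp and Npy). Cck (chr9:121489824-121495694, minus strand), which encodes cholecystokinin, had a median of 985 RPKM against 1.45, and exceeded 10 RPKM in 61 Slc6a3-high cells (85.9%, 75.6 to 93.03) and 56 others (22.05%, 17.1 to 27.7). Npw, the neuropeptide W gene, was found in 25 Slc6a3-high cells (35.2%, 24.2 to 47.5) and 3 others (1.18%, 0.244 to 3.41). Tac1, the substance P precursor, exceeded 10 RPKM in 1 Slc6a3-high cell and 51 others, a log2 ratio of -6.58. The call of Oprm1 was lost without the cells with under 6000 entries. The Vip ratio rested on 6 Slc6a3-high cells and is treated with them below.

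Vesicle release genes were mixed. Of 20 compared, 5 were higher (Syt1, Sv2c, Cplx1, Cplx2 and Rims1), 3 were lower (Vamp1, Sv2b and Syn2) and 12 were within 2-fold. Of all entries 3.43% were higher and 4.74% lower, so the list was called more often than entries in general. Its median log2 ratio was 0.14. Syt1, the calcium sensor of fast release, was at 173.1, 678 and 1963 RPKM against 0, 92.1 and 1074, and all 71 cells had it over 150 RPKM. Sv2c, the synaptic vesicle glycoprotein of basal ganglia neurons, exceeded 10 RPKM in 30 Slc6a3-high cells (42.3%, 30.6 to 54.6) and 4 others (1.57%, 0.431 to 3.98). Cplx2, a complexin, exceeded it in 49 and 38 cells, at a ratio of 11.7. Cplx1 had a mean ratio of 7.69, with medians of 123.7 and 72.1 RPKM and shares of 85.9% and 81.5%. The calls of Rims1 and Sv2b were lost under an alternative setting.

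Among 13 compared channel genes, 4 were higher (Kcnd3, Kcnip4, Kcnn3 and Kcnab1) and 2 lower (Kcnn2 and Scn1a). Kcnn3, a calcium-activated potassium channel of dopamine neurons, had a median of 36.4 RPKM against 0.815 and a mean ratio of 4.91. Kcnip4 and Kcnd3, subunits of the transient A-type potassium current, had ratios of 3.33 and 3.89. Of 11 compared neurotrophic genes, Ret, Gfra1, Ntf3 and Fgf1 were higher and none was lower. Ret and Gfra1, the receptor and co-receptor of GDNF, had medians of 174.5 and 250 RPKM against 54.1 and 39.9. The call of Fgf1 was lost without the cells with under 6000 entries, and those of Fgf1 and Kcnab1 with the plates weighted equally.

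Transcription factors of the dopamine lineage were mixed. Of 10 compared, En1, Satb1 and Neurod6 were higher, Lmx1a was lower, and the list's median log2 ratio was 0.25. En1, needed for survival of midbrain dopamine neurons, exceeded 10 RPKM in 65 Slc6a3-high cells (91.5%, 82.5 to 96.8) and 44.5% of the others (38.3 to 50.8). Lmx1a, an early specifier of the lineage, exceeded it in 18 (25.4%, 15.8 to 37.1) and in 66.5% of the others (60.4 to 72.3). The call of Satb1 was lost under an alternative setting.

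Nr4a2, which is required for the dopamine identity, was at a median of 117.9 RPKM against 116.6, a log2 ratio of -0.12. Pitx3 itself, the gene that carries the reporter, exceeded 10 RPKM in 38 Slc6a3-high cells (53.5%, 41.3 to 65.5) and 100 others (39.4%, 33.3 to 45.7), at a log2 ratio of 0.62. The eGFP transcript exceeded it in 56.3% of the Slc6a3-high cells and 49.6% of the others, at a log2 ratio of 0.22. Thus 31 sorted Slc6a3-high cells had eGFP transcript at 10 RPKM or less. Within the 71 cells the Spearman correlation of Pitx3 with eGFP was 0.12, given as a description over cells that share plates and depth differences.

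A list of transcription factors that the study assigned to the branch with little transporter was lower in 7 of its 8 compared members (Zfp536, Nfib, Nfix, Tcf4, Zfp385b, Ebf2 and Id2), with a median log2 ratio of -2.69. The study chose that list on these same cells, so the count is not independent evidence of its direction. Zfp536, a zinc finger factor, exceeded 10 RPKM in 0 of 71 Slc6a3-high cells, which allows a share of up to 4.23% (3 counts of the total, the limit used for every count of 0), and in 53.1% of the others (46.8 to 59.4). Tcf4, a basic helix-loop-helix factor, was at 0, 5.45 and 117.2 RPKM against 0, 74.8 and 436. The 3 factors that the study placed in the other branch were all under 10 RPKM on average in both groups and were not compared.

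Genes for a second fast transmitter were lower. Of 4 compared, Slc17a6, Gad1 and Gad2 were lower and none was higher. Slc17a6, the vesicular glutamate transporter VGLUT2, was at 0, 21.2 and 329.01 RPKM against 0, 251.8 and 764. It exceeded 10 RPKM in 40 Slc6a3-high cells (56.3%, 44.05 to 68.1) and 250 others (98.4%, 96.02 to 99.6), so the gene was lower in the Slc6a3-high cells but was present in most of them. Gad2, which makes GABA, exceeded 10 RPKM in 4 Slc6a3-high cells and 97 others, and Gad1 in 0 and 13. Slc32a1, the vesicular GABA transporter, was found in 3 and 41 cells and was under the level needed to be compared.

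C1ql1, a secreted synaptic organiser, and Nxph4, a neurexin ligand, were far more often found in the other cells. C1ql1 exceeded 10 RPKM in 4 Slc6a3-high cells (5.63%, 1.56 to 13.8) and 75.6% of the others (69.8 to 80.7), a log2 ratio of -5.54. Nxph4 exceeded it in 10 (14.1%, 6.97 to 24.4) and in 74.02% of the others (68.2 to 79.3), a log2 ratio of -4.33. Ptgds, which makes prostaglandin D2 and is also abundant in oligodendrocytes, Tac1, Zfp536, Ust and Adm were likewise among the 12 lower entries with the largest ratio on the plate where it was smallest. The log2 ratio of Ptgds was -4.85, and it was still called lower without the cells with oligodendrocyte markers. Ptgds, Ust and Adm stayed under 10 RPKM in all 71 Slc6a3-high cells and exceeded it in 68, 70 and 58 others. Nefl, the neurofilament light chain, was at a median of 1.16 RPKM against 124.8 and exceeded 10 RPKM in 39.4% of the Slc6a3-high cells and 95.7% of the others. Of 13 compared axon and cytoskeleton genes, Nefl, Nefm and Slit2 were lower and none was higher.

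Some gene lists held no called gene, as few entries of any kind were called (3.43% higher and 4.74% lower). All 26 nuclear genes of oxidative phosphorylation stayed within 2-fold, with a median log2 ratio of -0.36, against -0.07 over all entries. All 9 compared familial parkinsonism genes did so as well, at a median of 0.02. Sncg (chr14:34370274-34374789, minus strand), which encodes gamma-synuclein, was higher at a ratio of 10.4. It exceeded 10 RPKM in 41 Slc6a3-high cells (57.7%, 45.4 to 69.4) and 62 others (24.4%, 19.3 to 30.2). Of 9 compared calcium-buffering genes, Calb1 and S100a10 were higher and Hpcal1 and Necab1 lower.

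Genes of the dissociation response were measured as well. Of 11 compared immediate early genes, Junb, Egr1, Npas4 and Ier2 were lower and none was higher, while 4.74% of all entries were lower and 3.43% higher. Ier2 exceeded 10 RPKM in 4 Slc6a3-high cells and 45.7% of the others, and Fos was at a median of 10.2 RPKM against 316.6, with a log2 ratio of the means of -0.88. Of 11 compared heat shock and stress genes, Hspa1b, Hspb1, Atf3 and Hmox1 were lower, Hspa1b no longer with the plates weighted equally. Against the Nxph4-high cells described next, only Ier2 of 11 compared immediate early genes was lower and Arc was higher. Of all entries 5.08% were higher and 6.87% lower there, so 1 call in each direction is little beyond the share of entries in general. The median log2 ratio of these genes was 0.004 in place of -0.74. Of 9 compared heat shock and stress genes Hspb1 and Atf3 were lower there, with a median of 0.21 in place of -0.40. Whether these genes changed before or during dissociation cannot be told apart.

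The other cells are a mixture, in which 66.1% had Nxph4 over 150 RPKM, 30.7% had Gad2 and 42.5% had Th over that level. The Slc6a3-high cells were therefore also set against the 56 other cells that had both Nxph4 and Th over 150 RPKM. These are not the others with the most Th, since their median was 483 RPKM, against 808 in all others with Th over 150 and 2052 in the 27 others with Aldh1a1 over 150. These 27, a set formed after values were seen, also carried genes described above more often than the others as a whole. They exceeded 10 RPKM for Chrna6 in 25 cells, Slc10a4 in 16, Ntsr1 in 14 and Drd2 in 13, with medians of 143.4, 38.4, 12.5 and 6.29 RPKM. The comparison with the 56 cells shares its 71 cells with the previous one and takes its 56 cells from the others. Of 8113 entries, 412 were higher (5.08%) and 557 lower (6.87%), and on all 4 plates 78.6% and 76.5% of these kept their direction.

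Th itself was still 8.70-fold higher, with medians of 5488 and 483 RPKM, and Ddc and Slc18a2 were 5.15-fold and 5.59-fold higher. Cck exceeded 10 RPKM in 61 of 71 Slc6a3-high cells (85.9%, 75.6 to 93.03) and 3 of 56 Nxph4-high cells (5.36%, 1.12 to 14.9). After thinning to 100000 reads, these shares were 85.9% and 14.3%. Dlk1, a membrane protein of the Notch ligand family, exceeded 10 RPKM in 68 (95.8%, 88.1 to 99.1) and 7 (12.5%, 5.18 to 24.1).

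Npw, Grp and Anxa1 exceeded 10 RPKM in none of the 56 Nxph4-high cells and in 25, 32 and 14 Slc6a3-high cells. In the opposite direction C1ql1 exceeded it in 54 of 56 Nxph4-high cells (96.4%, 87.7 to 99.6), and Htr1a, the serotonin 1A receptor, in 31 of 56 against 0 of 71. Slc17a6 and Tcf4 were over 10 RPKM in all 56 Nxph4-high cells and in 40 and 31 Slc6a3-high cells. Nr4a2 and Pitx3 differed by log2 ratios of -0.18 and 0.49.

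Within the 71 cells, Aldh1a1 (chr19:20492715-20643465, plus strand) was used to form groups. It exceeded 150 RPKM in 35 cells, called Aldh1a1-high, was at 10 RPKM or less in 32, called Aldh1a1-low, and lay between in 4, which were left out of the comparison. Plates 1, 2, 4 and 5 gave 17, 10, 6 and 2 of the Aldh1a1-high cells and 10, 8, 7 and 7 of the Aldh1a1-low cells, so that the Aldh1a1-high share of Slc6a3-high cells was 60.7%, 47.6%, 46.2% and 22.2%. The 4 cells between came from plates 1 and 2 and were shallower, with a median of 853459 reads. Of the cells with under 6000 entries 6 were Aldh1a1-high, 2 lay between and 0 were Aldh1a1-low. Aldh1a1 was the gene used for the grouping, and its levels are a description.

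Of 7880 entries compared, 496 were higher in the Aldh1a1-high cells (6.29%) and 435 lower (5.52%). On plates 1, 2 and 4 taken alone, 62.1% and 71.95% of these kept their direction. Plate 5 held too few Aldh1a1-high cells for a value of its own. Without the cells with under 6000 entries the shares were 4.89% and 4.45%, and of the higher and lower entries above only 54.8% and 69.4% were still called. Among the genes named below Ndnf, Chrna5, Ntrk3 and Cacna1b were no longer called, and Fgf1 fell under the mean of 10 RPKM needed to be compared. The median log2 ratio over all entries was -0.05.

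Most genes of the dopamine machinery were within 2-fold between these groups, as were most entries. Of 10 listed genes, Slc6a3 was higher and Gch1 lower in the Aldh1a1-high cells, and 8 were within 2-fold. Of all entries 6.29% were higher and 5.52% lower. Slc6a3 was at 196.5, 2452 and 6570 RPKM against 165.3, 679 and 4532, a ratio of 2.22, and the ranges overlapped over most of their length. Th, Ddc and Slc18a2 had ratios of 1.43, 1.18 and 1.46. Gch1 ran the other way, with medians of 51.9 and 138.9 RPKM and a log2 ratio of -1.36. Drd2 and Ntsr1 had log2 ratios of -0.23 and 0.64 and were not called.

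None of 10 compared familial parkinsonism genes was called between the Aldh1a1 groups, where few entries of any kind were called (6.29% higher and 5.52% lower). Sncg and Sncb, which encode gamma- and beta-synuclein, had log2 ratios of 0.10 and -0.05. Sncg exceeded 10 RPKM in 18 of 35 Aldh1a1-high cells (51.4%, 33.99 to 68.6) and 21 of 32 Aldh1a1-low cells (65.6%, 46.8 to 81.4), which the counting of cells could not tell apart.

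Genes that mark known dopamine neuron subtypes were called in part. Of 10 compared ventral nigral genes, 5 were higher in the Aldh1a1-high cells (Aldh1a1, Aldh1a7, Anxa1, Ndnf and Satb1), Igf1 was lower and 4 were within 2-fold. Over all entries 6.29% were higher and 5.52% lower. Aldh1a1 itself formed the groups. Aldh1a7, Anxa1, Ndnf and Satb1 averaged under 10 RPKM in the Aldh1a1-low cells, so their direction was fixed by entering. The 5 higher genes therefore add no support to a direction of the ventral nigral list. Of 11 compared dorsal nigral and tegmental genes, 5 were higher (Otx2, Lpl, Grp, Adcyap1 and Neurod6), Calb2 and Vip were lower and 4 were within 2-fold. Otx2, Lpl and Neurod6 likewise entered only through the Aldh1a1-high cells, and Vip only through the Aldh1a1-low cells. Grp, Adcyap1 and Calb2 averaged over 10 RPKM in both groups. Aldh1a7 is a near-identical neighbour of Aldh1a1, and reads of the pair are uncertain. The Ndnf and Igf1 directions each rested on 1 plate, since Ndnf had a log2 ratio of 1.33 and of -0.07 without plate 4, and Igf1 of -1.09 and of 0.98 without plate 2.

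Lpl (chr8:68880491-68907448, plus strand), which encodes lipoprotein lipase, was at 0, 62.3 and 245.6 RPKM in the Aldh1a1-high cells and 0, 0 and 17.3 in the Aldh1a1-low cells. It exceeded 10 RPKM in 24 of 35 (68.6%, 50.7 to 83.1) and 1 of 32 (3.12%, 0.0791 to 16.2). Gpr83, an orphan-type receptor of dopamine neurons, exceeded it in 22 and 2 cells. Otx2, a factor of the tegmental lineage, exceeded it in 21 (60%, 42.1 to 76.1) and 4 (12.5%, 3.51 to 28.99), and Neurod6 in 19 and 2.

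Anxa1, which encodes annexin A1, exceeded 10 RPKM in 14 Aldh1a1-high cells (40%, 23.9 to 57.9) and in 0 of 32 Aldh1a1-low cells, which allows a share of up to 9.38% by the same limit. Every Slc6a3-high cell with Anxa1 over 10 RPKM was thus Aldh1a1-high, although 21 Aldh1a1-high cells lacked it. Grp, gastrin-releasing peptide, exceeded 10 RPKM in 23 and 8 cells, and Adcyap1, the PACAP precursor, in 23 and 7. Kcnab1, a potassium channel beta subunit, exceeded it in 25 (71.4%, 53.7 to 85.4) and 3 (9.38%, 1.98 to 25.02), the difference being 62.1 points (39.9 to 75.7).

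Of 7 compared nicotinic subunits, Chrna3, Chrna5 and Chrna6 were higher in the Aldh1a1-high cells and none was lower. Chrna6 was over 10 RPKM in all 35 Aldh1a1-high cells and in 23 of 32 Aldh1a1-low cells (71.9%, 53.3 to 86.3), with medians of 438 and 93.5 RPKM. Chrna3 was found in 13 and 1 cells. Among 11 compared channel genes, Kcnn3 and Kcnab1 were higher and Cacna1b lower, although the call of Cacna1b was lost under an alternative setting. Kcnn3 had medians of 68.3 and 14.9 RPKM and a log2 ratio of 1.79.

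**Figure D2:**
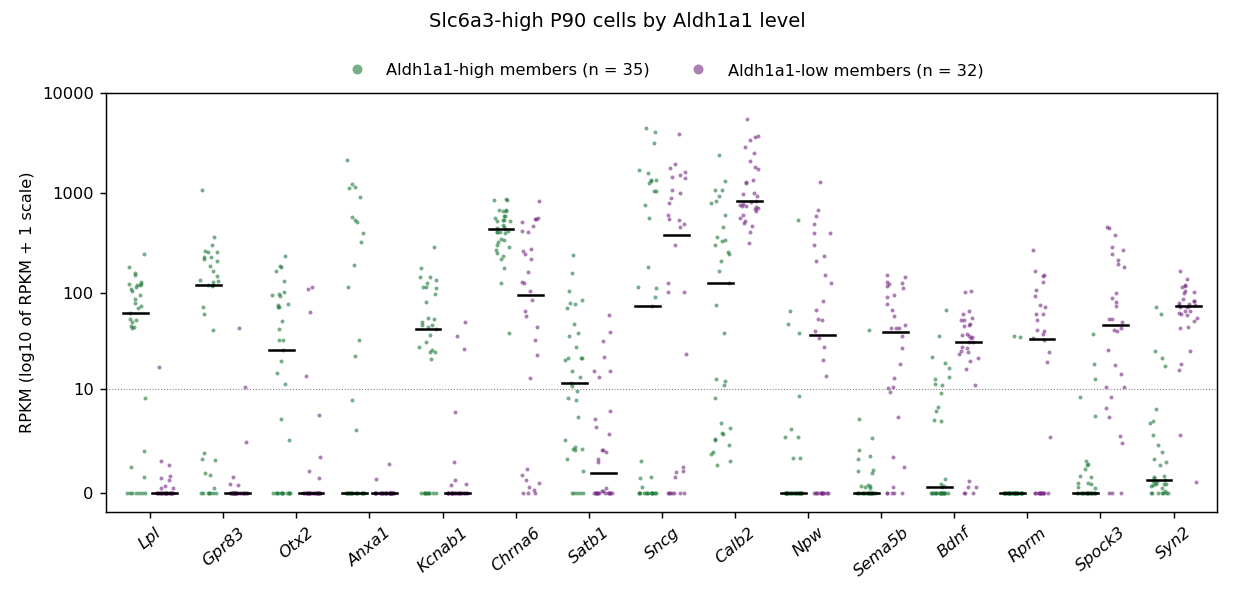
Levels of 15 genes in RPKM (log10 of RPKM + 1 scale) in the 35 Aldh1a1-high and the 32 Aldh1a1-low cells among the Slc6a3-high P90 cells, 1 point per cell, with black bars at the medians and a dotted line at 10 RPKM. Lpl, Gpr83, Otx2, Kcnab1, Chrna6 and Satb1 had higher medians in the Aldh1a1-high cells, Anxa1 was over 10 in 14 of them and in none of the Aldh1a1-low cells, and Sncg, Calb2, Npw, Sema5b, Bdnf, Rprm, Spock3 and Syn2 had lower medians there.

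Genes lower in the Aldh1a1-high cells, hence higher in the Aldh1a1-low cells, included secreted factors and peptides. Of 11 compared neurotrophic genes, Fgf1 was higher in the Aldh1a1-high cells and Ntrk3, Bdnf, Ntf3 and Igf1 lower. The mean of Fgf1 in the Aldh1a1-high cells, 17.3 RPKM, rested mostly on 2 cells with under 6000 entries, at 304.8 and 141.3 RPKM. Bdnf, brain-derived neurotrophic factor, exceeded 10 RPKM in 9 Aldh1a1-high cells (25.7%, 12.5 to 43.3) and 26 Aldh1a1-low cells (81.2%, 63.6 to 92.8). Ntf3, neurotrophin 3, exceeded it in 13 and 23 cells, but its log2 ratio of -1.41 was -0.73 without plate 2. The call of Ntrk3 was likewise lost under an alternative setting.

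Of 14 compared peptide genes, Adcyap1 and Grp were higher and Vip, Npw, Crhbp, Crhr1 and Gipr lower. The Vip call rested on the Aldh1a1-low cells with Vip over 150 RPKM that are described below. Npw exceeded 10 RPKM in 4 Aldh1a1-high cells (11.4%, 3.20 to 26.7) and 20 Aldh1a1-low cells (62.5%, 43.7 to 78.9). Crhr1, the receptor of corticotropin-releasing hormone, exceeded it in 5 and 15 cells. The call of Gipr was lost, at a log2 ratio of -0.30, under an alternative setting.

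Sema5b, Postn, Ctxn3, Spock3, Rprm and Lypd1 were among the 12 entries that were lowest in the Aldh1a1-high cells by the ratio on the plate where it was smallest. Spock3, an extracellular matrix proteoglycan, exceeded 10 RPKM in 3 Aldh1a1-high cells (8.57%, 1.80 to 23.1) and 24 Aldh1a1-low cells (75%, 56.6 to 88.5). Sema5b, a semaphorin, exceeded it in 1 and 22 cells, and Rprm in 2 and 19. Cbln1, a cerebellin, exceeded it in 2 and 19 cells, but it overlaps the antisense entry Gm2694, which is among the same 12, and without strand the reads of these entries cannot be told apart.

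Calb2, which encodes the calcium-binding protein calretinin, was at 0.932, 125.99 and 2403 RPKM in the Aldh1a1-high cells and 314.6, 823 and 5480 in the Aldh1a1-low cells, all 32 of which exceeded 150 RPKM. Calb1, which encodes calbindin, had a log2 ratio of -0.57 and was not called, and it too exceeded 10 RPKM in all 32 Aldh1a1-low cells, against 27 of 35 Aldh1a1-high cells.

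Of 20 compared vesicle genes, Syt17, Sv2b, Cplx1 and Rab3b were higher in the Aldh1a1-high cells and Syn2 lower, the call of Sv2b being lost with the plates weighted equally. Syn2, synapsin II, was at 0, 0.343 and 71.99 RPKM in the Aldh1a1-high cells and 0.293, 72.9 and 165.03 in the Aldh1a1-low cells. It exceeded 10 RPKM in 5 of 35 (14.3%, 4.81 to 30.3) and 30 of 32 (93.8%, 79.2 to 99.2), a difference of -79.5 points (-88.7 to -58.95). Cplx1 exceeded it in 30 and 28 cells, with medians of 285.4 and 90.2 RPKM. Of 26 oxidative phosphorylation genes 0 were called, at a median log2 ratio of 0.03, and none of 7 compared heat shock genes was called. Calls were few over all entries as well (6.29% higher and 5.52% lower). Of 10 compared immediate early genes, Junb and Egr1 were lower in the Aldh1a1-high cells.

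Of 9 compared lineage transcription factors, Pitx3, Otx2, Satb1 and Neurod6 were higher in the Aldh1a1-high cells and none was lower. Pitx3 exceeded 10 RPKM in 24 Aldh1a1-high cells (68.6%, 50.7 to 83.1) and 13 Aldh1a1-low cells (40.6%, 23.7 to 59.4). Its log2 ratio of 1.21 was 0.93 without plate 1 and 0.91 after thinning. Of the list of factors from the branch with little transporter, 3 were compared here and Tcf4 and Zfp385b were higher. Tcf4 was found in 20 and 10 cells at medians of 15.2 and 1.66 RPKM.

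**Figure D3:**
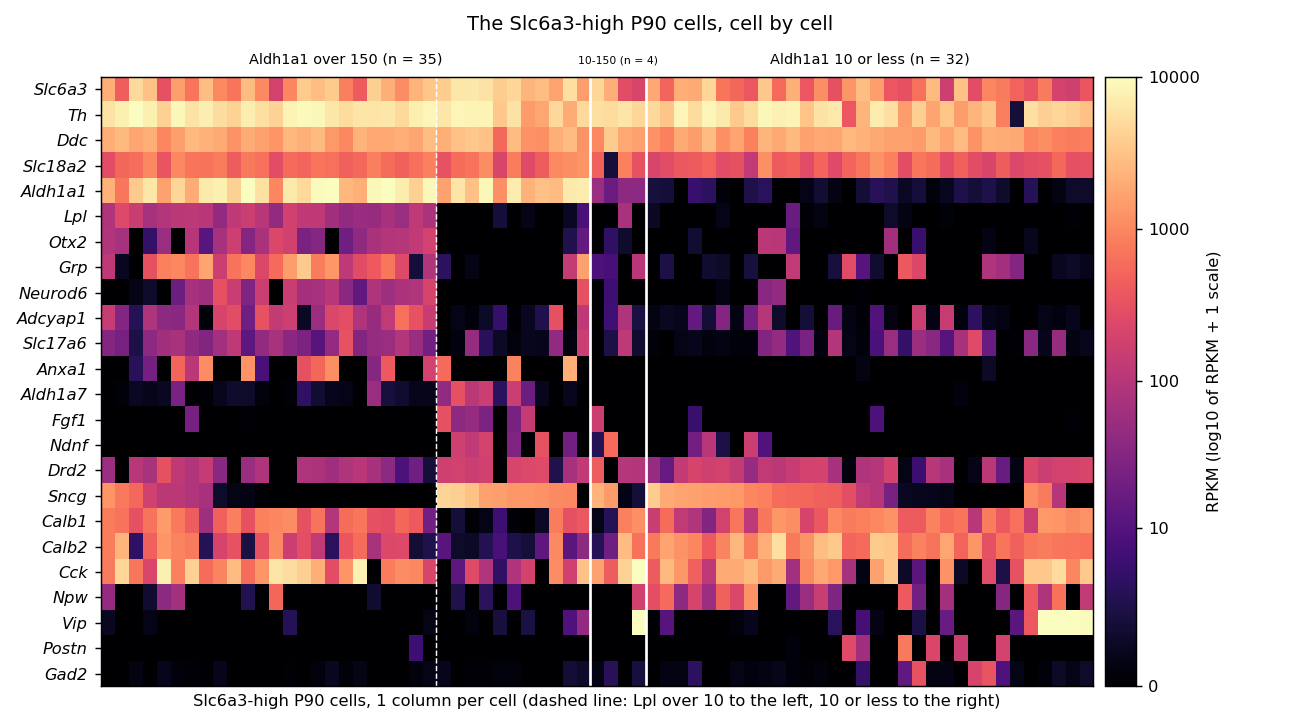
The 71 Slc6a3-high P90 cells, 1 column per cell, with 24 genes in rows and colour giving RPKM (log10 of RPKM + 1 scale, black at 0). Solid lines separate the 35 Aldh1a1-high, 4 intermediate and 32 Aldh1a1-low cells, and the dashed line separates 24 Aldh1a1-high cells with Lpl over 10 RPKM from 11 without it. Sncg, Fgf1, Ndnf and Aldh1a7 were more often found to the right of the dashed line, and Otx2, Grp, Neurod6, Adcyap1 and Slc17a6 to its left.

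The cell-by-cell levels showed that the Aldh1a1-high cells were not alike. The sets in this and the next 3 paragraphs were formed after the values were seen, and their values are a description without a test. Of the 35 Aldh1a1-high cells, 24 had Lpl over 10 RPKM, the lowest at 43.8, and 11 had Lpl at 10 RPKM or less, the highest at 7.94. Library quality moved with this division, since the 24 cells had 6777 to 10969 detected entries, while 6 of the 11 had only 3822 to 5187 and at most 954977 reads, and the other 5 had 7545 to 12124. Of the 24 cells with Lpl, 20 also had Otx2 over 10 RPKM, 21 Grp, 21 Adcyap1, 18 Neurod6, 23 Slc17a6 and all 24 Calb1. The 11 cells without Lpl had these genes in 1, 2, 2, 1, 3 and 3 cells. Conversely, Sncg exceeded 10 RPKM in 10 of the 11 and in 8 of the 24, Fgf1 in 6 and 1, Ndnf in 6 and 0, and Aldh1a7 in 6 and 2. In the 5 cells without Lpl and with 7545 entries or more, Sncg was found in 5, Fgf1, Ndnf and Aldh1a7 in 4 each, Otx2, Grp and Neurod6 in 0, Adcyap1 and Calb1 in 1 each and Slc17a6 in 2. Slc6a3 was at 1539, 3805 and 6570 RPKM in the 11 cells and at 196.5, 1809 and 4935 in the 24. Median Drd2 was 174.6 and 66.5 RPKM. Anxa1 crossed the sets, with 11 of the 24 cells and 3 of the 11. Plates 1, 2, 4 and 5 gave 11, 9, 3 and 1 of the cells with Lpl and 6, 1, 3 and 1 of those without, so that both sets were present on every plate, but the 5 came from plates 1 and 4.

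Among the 32 Aldh1a1-low cells, 21 had Sncg over 10 RPKM and 11 did not. Cck exceeded 10 RPKM in 20 of the 21 and 6 of the 11, Npw in 15 and 5, and Drd2 in 20 and 6. All 32 cells had Calb1 and Calb2. Median Th was 5499 and 2385 RPKM. Otx2 was found in 4 of the 21 and in none of the 11. Gad2 exceeded 10 RPKM in 4 cells, all of them without Sncg.

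Vip, the vasoactive intestinal peptide gene, exceeded 150 RPKM in 6 Slc6a3-high cells, where it ran from 366.2 to 33177. Of these cells 5 were Aldh1a1-low and 1 intermediate, and they came from plates 2, 4 and 5. Their Slc6a3 was low for the population, at 171.3, 277.5 and 778 RPKM. Cck was at 985 RPKM or more in all 6, Drd2 ran from 95.3 to 234.4, and Npw exceeded 10 RPKM in 5. Chrna6 was at 57.5 RPKM or less in each. Vip over 150 RPKM was also reached outside the Slc6a3-high cells, where the highest level was 26949.5 RPKM. At the lower limit of 10 RPKM, Vip was found in 3, 0, 2 and 9 others of plates 1, 2, 4 and 5. At that limit it was found in 2, 3, 1 and 4 Slc6a3-high cells of these plates. The lower limit can also count cells under 150 RPKM, so it does not give how many others had high Vip. The Vip ratio between Slc6a3-high and other cells depended on the 6 cells. Its log2 value of 2.35 became -0.10 when Slc6a3 had to exceed 300 RPKM, a rule that also moved some of the 6 into the others.

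Postn, which encodes the matrix protein periostin, exceeded 10 RPKM in 6 Slc6a3-high cells (60.2 to 771) and in none of the others, which allows a share of up to 1.18% by the same limit. All 6 were Aldh1a1-low and they came from each of the 4 plates. Their Th was lower than in most Slc6a3-high cells, at 374, 1508 and 2424 RPKM, while Ddc was at 1634, 2420 and 2829. Cck exceeded 10 RPKM in 1 of the 6 and Nxph4 in 4. Gad2 exceeded 150 RPKM in 3 Slc6a3-high cells, at 204.5 to 350.2, and Nxph4 in 2, at 154.3 and 154.8. The other cells over that limit had medians of 552 and 354.01 RPKM.

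Slc6a3 and Cck ran in opposite directions within the Slc6a3-high cells. Their Spearman correlation was -0.55 over 71 cells, -0.81 over the 35 Aldh1a1-high cells and -0.37 over the 32 Aldh1a1-low cells. These are descriptions over cells that share plates and animals, and Slc6a3 is the gene that chose them. The correlation of Slc6a3 with read depth was -0.05, with the number of detected entries 0.24, and with Ddc and Th 0.53 and 0.41. All 8 cells with under 6000 entries had Slc6a3 at 1539 RPKM or more. Without them the correlation of Slc6a3 with Cck was -0.53 over 63 cells and -0.84 over 29 Aldh1a1-high cells, and that with the number of detected entries was 0.53 and 0.60, whose part was not tested. In the Aldh1a1-high cells the division by Lpl ran along the same line, as median Cck was 1045 RPKM in the 24 cells with Lpl and 90.4 in the 11 without, and also 90.4 in the 5 of these with more entries.

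**Figure D4:**
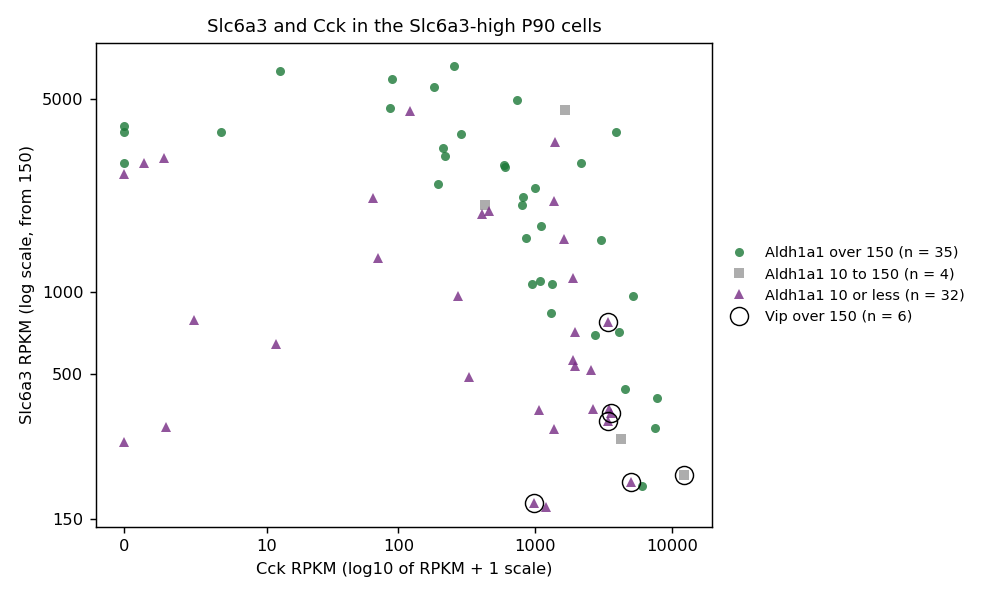
Slc6a3 (vertical, RPKM, log scale from 150) against Cck (horizontal, log10 of RPKM + 1 scale) in the 71 Slc6a3-high P90 cells, 1 symbol per cell, by Aldh1a1 level, with rings around the 6 cells with Vip over 150 RPKM. Slc6a3 was lower where Cck was higher, with a Spearman correlation of -0.81 in the 35 Aldh1a1-high cells, and the ringed cells lie at low Slc6a3 and high Cck.

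The same rule was applied to heterozygous cells of the earlier stages, to place the adult cells in time. It chose 25 cells (17.9%) at embryonic day (E) 13.5, 38 (26.95%) at E15.5, 80 (42.6%) at E18.5, 35.1% of the cells at P1 and 35 (18.6%) at P7. Each stage came from other animals, and by the study's methods the dissociation kit differed between the embryonic stages, P1 with P7, and P90 (papain). Only cells of E18.5, P1 and P90 held spike-in RNA. Plates were taken to follow stage, but the labels name no plate for the earliest heterozygous cells, such as those of E13.5. Stage, animal, dissociation, spike-in and plate therefore cannot be told apart. Chosen cells meeting the above oligodendrocyte marker rule numbered 5 at E18.5, 4 at P1, 5 at P7, 1 at P90 and 0 before E18.5. The study removed oligodendrocyte-like cells at the embryonic and perinatal stages, whereas no such removal was made here. Median reads of the chosen cells also differed, from 1072039 at E18.5 to 2354720 at E13.5. The part of both is given below only for Pitx3 between P1 and P90. At P90 the chosen cells had a median Slc6a3 of 1539 RPKM, against 534 to 811 at the other stages, and a median Th of 5488, against 1731 to 2612.

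Several genes were found in a higher share of the adult cells than at P7 and P1, although for Sncg and Anxa1 the intervals at P90 and P7 overlapped. Sncg exceeded 10 RPKM in 57.7% (45.4 to 69.4) of Slc6a3-high cells at P90, 34.3% (19.1 to 52.2) at P7, 8.04% (3.74 to 14.7) at P1 and in 0 of 25 at E13.5. Ntsr1 was at 95.8% (88.1 to 99.1) at P90, against 45.7% at P7 and 58.04% at P1. Npw was at 35.2% (24.2 to 47.5), against 2.86% and 5.36%. Maob, Sncb, Cplx1 and Sv2c were also at higher shares. Maob reached 52.1% against 14.3% and 13.4%, and Sv2c 42.3% against 14.3% and 17.9%. Anxa1 was found in 19.7% (11.2 to 30.9) at P90 and in 5.71% (0.700 to 19.2) at P7.

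The reporter gene went the other way. Pitx3 exceeded 10 RPKM in 80 to 93.8% of Slc6a3-high cells at the earlier stages and in 53.5% (41.3 to 65.5) at P90, and its median was 130 RPKM at P1 and 18.7 at P90. Its interval at P7 (63.1 to 91.6) overlapped that at P90. The difference between P1 and P90 was 37.6 points (24.6 to 49.7, Newcombe). It was 38.8 points (25.7 to 50.98) without the cells with oligodendrocyte markers, and 36.7 (23.6 to 48.9) after thinning to 100000 reads. The eGFP transcript was at 91.96% at P1, 91.4% at P7 and 56.3% (44.05 to 68.1) at P90, so that the gene and the reporter were lower together. Lmx1a was at 61.6%, 60% and 25.4% and Lmx1b at 46.4%, 45.7% and 15.5%. Cd24a, a surface protein of immature neurons, was at 87.5%, 77.1% and 21.1%. Nr4a2 stayed at 88.6% or more at every stage, although its median was 515 RPKM at E13.5 and 117.9 at P90. Aldh1a1 exceeded 10 RPKM in 24% at E13.5 and in 48.6 to 67.9% from E15.5 on, without a steady order.

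**Figure D5:**
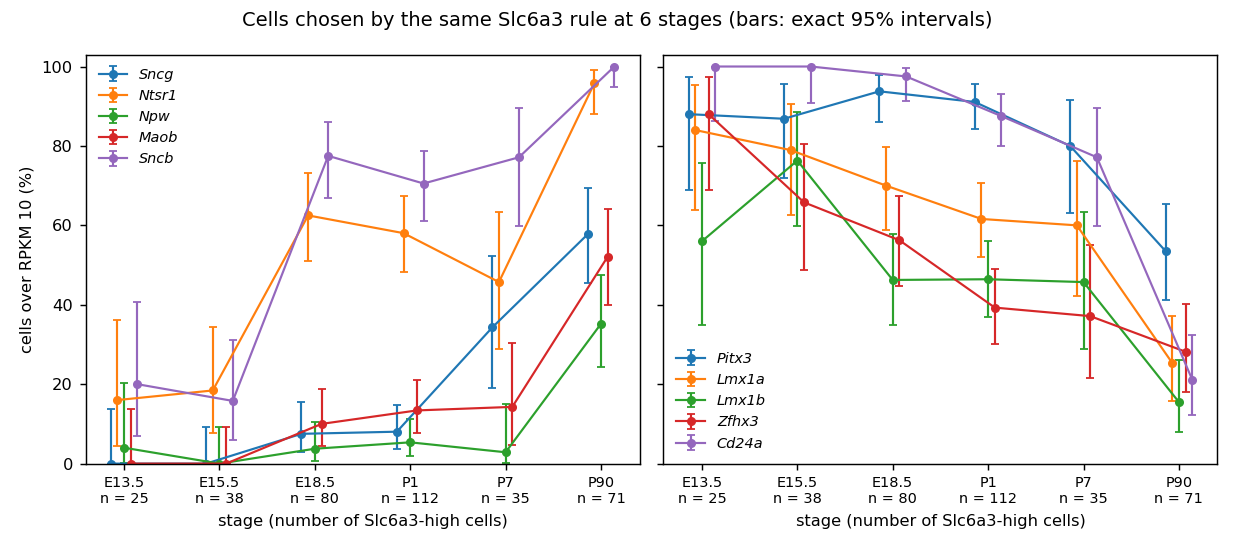
Share of Slc6a3-high cells over 10 RPKM (percent, vertical) at 6 stages for 5 genes more frequent at P90 (left) and 5 genes less frequent there (right), with exact 95% intervals as bars and the number of cells under each stage. Sncg went from 0 of 25 cells at E13.5 to 57.7% at P90, and Pitx3 from 88% to 53.5%.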

How the data were processed

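Single-cell RNA-seq by Smart-seq2 was measured in GFP-positive midbrain cells, 1 library per cell. Per the submitters' processing notes and the study's methods, reads were aligned with STAR to mm10 with eGFP and spike-in sequences, and uniquely mapping reads were counted per gene. The authors deposited for every cell raw read counts and RPKM values (reads per kilobase of transcript, scaled to the reads of the cell), for 39468 entries of which 38130 had a symbol. Entries without one held 0.207% of P90 reads. The protocol keeps no strand, so overlapping and antisense genes cannot be told apart, and PCR reads without molecular identifiers are not independent molecules, so intervals cover counting error only.

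The deposited counts gave depth (over 100000 reads per cell) and the thinned counts. The deposited RPKM gave all levels. Means, with 1 RPKM added, were compared for entries with a mean of at least 10 RPKM in either group, and a 2-fold ratio was counted. Since the labels name no animal, each group is 1 sample, no p-value was computed, and direction within plates (at least 5 cells per group, or 3 within the Aldh1a1 groups) was recorded instead. Shares above 0 have exact Clopper-Pearson intervals, counts of 0 a limit of 3 counts of the total, and differences Newcombe intervals. No 2 cells held identical values. No doublet caller was run, but cells with 3 or more oligodendrocyte markers were left out as an alternative.

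Named genes were those of the lists plus, in each direction, the 12 entries (10 for the Nxph4-high cells) that kept their direction on all plates and whose ratio on the plate where it was smallest was largest. Other names in the text come from cell sets formed after values were seen. The members, thresholds and the 29 gene lists were chosen with earlier results of these data known. Some listed genes are not reported here and are left out of the list counts. All other listed symbols except Slc18a3 were found. Leaving out cells with Vip, or with Nxph4, Gad2 or Vip, over 150 RPKM, leaving out cells with under 6000 entries (also from the correlations), and weighting plates equally were alternatives chosen after seeing the data. Scripts were tested on simulated data and used Python 3.11.15, numpy 2.4.6, scipy 1.17.1, pandas 2.3.3 and matplotlib 3.10.9. Gene positions are from GENCODE on GRCm38.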

Additional observations from a re-analysis of the deposited data

How the results depend on the processing

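Of 2531 recomputed gene ratios, 94.4% kept their direction and their side of the 2-fold limit, 5.41% kept the direction only and 4 reversed. Vip between Slc6a3-high and other cells (log2 ratio 2.35) was -0.10 with Slc6a3 over 300 RPKM and -6.30 without Slc6a3-high cells with Nxph4, Gad2 or Vip over 150 RPKM, an alternative chosen after seeing the data. The limit of 300 RPKM also counted cells with Slc6a3 from 150 to 300 RPKM, some of them rich in Vip, among the others. The -6.30 followed from the removal itself, since Vip-rich cells were taken from the Slc6a3-high group only. Between the Aldh1a1 groups, leaving out each plate in turn moved Igf1 from -2.15 (plate 5) to 0.98 (plate 2) and Ndnf from -0.068 (plate 4) to 2.38 (plate 1). With 10 RPKM added in place of 1, the share of entries at least 2-fold higher and lower was 1.54% and 1.58% (from 3.43% and 4.74%) against all other cells, 2.11% and 1.57% (from 6.29% and 5.52%) between the Aldh1a1 groups, and 2.24% and 1.97% (from 5.08% and 6.87%) against the Nxph4-high cells. A 4-fold limit left 1.07% and 1.05% against all other cells and 1.65% and 1.09% between the Aldh1a1 groups. Without the filter on low values, 657 (2.55%) and 1261 (4.90%) of 25735 entries passed against all other cells, and 1418 (6.63%) and 1354 (6.34%) of 21372 between the Aldh1a1 groups, more in number because more entries were compared. Leaving out each plate in turn gave 43 (without plate 1) to 62 Slc6a3-high cells, fewer because cells were removed, and 5.77% (without plate 5) to 8.63% (without plate 1) of entries lower in the Aldh1a1-high cells. The difference in the share of cells with Th, 36.8 points at 10 RPKM, was 2.76 (-2.57 to 5.58) at 1 RPKM and 44.7 at 50 RPKM. The cause was not tested where none is given. No analysis paired by replicate or animal was possible because the labels carry no replicate number shared between groups and no animal. Plates were shared, and weighting them equally, an alternative chosen after seeing the data, gave 2.84% higher and 6.32% lower against all other cells and 6.98% and 6.40% between the Aldh1a1 groups.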
